A study of Mus musculus with 24 samples.

Results

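The comparison set 3 RNA-seq libraries labelled doxycycline withdrawal against 3 labelled continued doxycycline, all at day 13 and all from mouse cells carrying miR-125b. These are 6 of the 24 libraries of the series, chosen by their labels alone and paired by replicate number 1 to 3. The cells were fetal liver cells of stage E12.5-13.5, from a B6J.129(Cg) mouse strain in which the CAG promoter drives Cas9 and EGFP from the Rosa26 locus. Every group, controls included, also carried a guide RNA against Gata1 (sgGata1), and the labels call the cells Gata1s-FLCs. In the continued libraries the cells had 1 µg/mL doxycycline for 13 days, and in the withdrawal libraries the drug was taken away on day 10. The same 2 treatments in cells carrying a control construct (3 libraries each), and miR-125b and control cells after 10 days of doxycycline (3 libraries each), served as references. The labels do not give the promoter of the miR-125b construct, nor whether doxycycline switches it on or off. No level of miR-125b is therefore inferred from a treatment label, and the groups are called by their labels throughout. Nothing in the sources used here checks the day 13 labels of the miR-125b cells independently. Had they been exchanged, every withdrawal minus continued value of these cells would turn its sign. The labels also do not say whether replicates came from separate embryos or cultures, so p-values measure the spread between these libraries, which may be technical.

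GATA1 is the transcription factor that drives megakaryocyte and red cell maturation, and GATA1s is its short form without the amino-terminal part, found in the myeloid leukaemia of children with Down syndrome. A microRNA such as miR-125b lowers its targets by base pairing of its seed, the bases near its 5′ end, with sites mostly in 3′ untranslated regions (UTRs). In blood cells miR-125b is known to promote the growth of progenitors, and the series title names ARID3A, an AT-rich DNA-binding transcription factor, as its target.

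The mature microRNA is shown with its seed matches in the called genes and in Arid3a, the target named in the series title, so that the counts of matches given later can be read against the letters. Of the called genes Rapgef4 has no match. The first line is mmu-miR-125b-5p from RefSeq (GRCm38.p6, encoded by Mir125b-1 on chromosome 9 and Mir125b-2 on chromosome 16), with bases 2 to 8, the seed, in capitals. The other lines are 30 bases of the longest annotated 3′ UTR (GENCODE M21, GRCm38), 5′ to 3′ on the gene's strand. Capitals there mark the 7-base match CTCAGGG or the 8-base match CTCAGGGA, which adds an A after it.
miR-125b-5p: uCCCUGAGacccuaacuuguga
Abtb1 (chr6:88836079-88836086, minus strand): ggcaggcaccaCTCAGGGAaaactggggta
Zfp385a (chr15:103314795-103314802, minus strand): acaccccagatCTCAGGGAaccccgccccc
Lin28b (chr10:45378798-45378805, minus strand): aaagaactttgCTCAGGGAacataccatat
Tmem123 (chr9:7793359-7793365, plus strand): ctcaggtcaaaCTCAGGGccaggtttaaca
Cd151 (chr7:141470875-141470881, plus strand): tggcatgccacCTCAGGGgcatgcaccttc
Lamc1 (chr1:153219014-153219021, minus strand): agccttcccccCTCAGGGAgggcaataaag
Arid3a, first 8-base match (chr10:79952887-79952894, plus strand): gcctcctgtgcCTCAGGGAtgacagtgctg
Arid3a, second 8-base match (chr10:79953820-79953827, plus strand): tgggtaactggCTCAGGGAtatagcagcca

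The 6 libraries held 17120509 to 20910928 counts. Levels are given as CPM, counts scaled to a common library total with TMM factors, and 3 counts, the upper limit that a count of 0 allows, correspond to 0.143 to 0.175 CPM. The replicate number was a block in the fit because the comparison pairs libraries by it, and same-numbered libraries also deviated together. Of the first 3 principal components of the 6 libraries, components 1 and 2 (52.1% and 21.4% of the variance) followed the replicate number, and component 3 (11.1%) followed the treatment label, which explained 98.4% of it. One library outside the comparison stood apart: control withdrawal replicate 1 had 35100 CPM on the mitochondrial genome, against 12700 to 20000 in the other 23. It enters the shared estimate of the spread and the control contrast. Without it 8 genes were called, among them all 7 named below. Markers of other cells were present in part. The hepatocyte, endothelial and stromal list summed to 187 to 232 CPM in the continued and 178 to 231 CPM in the withdrawal libraries, most of it from Pecam1 (121 to 188 CPM), which platelets also carry, and Pdgfrb (17.8 to 49 CPM). The lymphoid list summed to 13.2 to 57.4 and 19.4 to 75.4 CPM, with Nkg7, a cytotoxic granule gene, at 8.5 to 66.9 CPM. In all 6 libraries the hepatocyte and stromal genes Alb, Ttr, Serpina1a, Col3a1, Pdgfra, Dcn and Lum and the lymphoid genes Cd4, Cd8a, Ms4a1, Rag1 and Cd2 had 0 counts, whereas 29 of 30 megakaryocyte and platelet genes passed the filter on low counts.

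Gata1 (chrX:7959260-7978071, minus strand), the gene the guide targets, had 219, 419 and 291 CPM in continued replicates 1, 2 and 3 and 205, 366 and 213 CPM in the withdrawal libraries. The groups overlapped, replicate 2 was the highest in both, and the log2 difference was -0.24 ± 0.15 (SE, edgeR quasi-likelihood test with Benjamini-Hochberg adjustment, adjusted p = 1.0). Within pairs Gata1 was lower in each, at -0.100, -0.195 and -0.447, as 15.5% of all genes tested were in 3 of 3 pairs. An edgeR fit to the 6 libraries alone with the block called it lower (adjusted p = 0.0425), as it did 0.83% of the genes tested there. Gene counts do not tell the short from the full-length form. The microRNA itself could not be read: across all 24 libraries 0 counts fell on Mir125a, on Mir99ahg, which hosts a miR-125b hairpin, or on Mir125b-1 and Mir125b-2.

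Between the libraries labelled withdrawal and continued, 7 of 13419 genes tested passed the test (0.0522%). Of these, 4 fell (0.0298%): Abtb1, Zfp385a, Lin28b and Tmem123. Another 3 rose (0.0224%): Rapgef4, Cd151 and Lamc1. For all 7 the continued and withdrawal libraries did not overlap and the 3 pairs moved the same way. Over all genes tested 17.1% were higher and 15.5% lower in 3 of 3 pairs. The share of all genes whose groups do not overlap is not given here. The calls rest on these same values, so separate groups and like pairs, here and below, only describe the genes named. This count depends strongly on how the spread is estimated. The fit without the block called 0 genes (297 at an unadjusted p under 0.05), and each fit that left out 1 of the 6 libraries called 0 to 2, the 2 being Abtb1 and Rapgef4 without continued replicate 2. DESeq2 called 16, and a fit to the 6 libraries alone with the block called 301, each including the 7. In that 6-library fit a gene has 2 residual degrees of freedom of its own, against 14 in the main fit. Its spread is also drawn toward that of the other genes, with a median weight of 24.9 prior degrees of freedom against 7.57. The common dispersion was 0.00473 there and 0.0169 in the main fit.

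Abtb1, an ankyrin-repeat and BTB-domain protein listed in the literature among miR-125b targets, gave the largest fall among the 7. It had 48.4, 59.0 and 68.6 CPM in the continued libraries and 30.4, 35.9 and 30.9 CPM in the withdrawal libraries. All withdrawal values lay below the lowest continued value, for a log2 fold change of -0.85 ± 0.13 (SE, edgeR adjusted p = 0.0132). Among control cells Abtb1 stood at 76.7 ± 15.1 CPM with continued doxycycline and 76.8 ± 17.1 CPM after withdrawal (SD, n = 3). At day 10 the miR-125b libraries had 57.6, 59.1 and 59.2 CPM, close to the continued libraries and above every withdrawal library.

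Zfp385a, also called Hzf, is a zinc-finger protein with known roles in megakaryocytes and in the p53 response. Its CPM values were 356, 467 and 413 in the continued libraries and 247, 335 and 272 in the withdrawal libraries. The groups were separate, and the 3 pairs gave log2 differences of -0.53, -0.48 and -0.60. The fitted change was -0.54 ± 0.08 (SE, edgeR adjusted p = 0.0132), against 0.04 ± 0.08 in the control cells. The day 10 miR-125b libraries lay at 284, 375 and 255 CPM, each below the continued library of the same number.

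Lin28b encodes an RNA-binding protein that blocks maturation of let-7 microRNAs and marks the fetal programme of blood cells. It had 58.4, 60.8 and 50.9 CPM in the continued libraries and 39.2, 37.1 and 38.6 CPM in the withdrawal libraries. The withdrawal values lay below all other day 13 values, including those of the control cells. The log2 fold change was -0.56 ± 0.10 (SE, edgeR adjusted p = 0.0435). In the control cells Lin28b went from 55.2 ± 4.51 to 48.4 ± 1.64 CPM (SD, n = 3), a difference of -0.19 ± 0.10 that did not pass the test.

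Tmem123 (porimin), a cell-surface mucin-like protein, had 337, 338 and 365 CPM in the continued libraries and 264, 271 and 258 CPM in the withdrawal libraries. Its change was smaller than the others but tight across pairs, at -0.39 ± 0.07 (SE, edgeR adjusted p = 0.0435) against -0.02 ± 0.07 in the control cells.

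Of the 3 genes that rose, Cd151 and Lamc1 are in the adhesion and matrix list. Cd151, a tetraspanin that binds laminin-binding integrins and is present on platelets, had 23.2, 24.5 and 29.7 CPM in the continued libraries and 38.0, 40.1 and 42.2 CPM in the withdrawal libraries. The groups were separate, with a log2 fold change of 0.64 ± 0.12 (SE, edgeR adjusted p = 0.0435). Control cells had 25.6 ± 3.27 and 28.7 ± 6.72 CPM (SD, n = 3), both near the continued miR-125b libraries. Lamc1, the gamma-1 chain of laminin, went from 14.1, 10.3 and 9.83 CPM to 24.9, 16.4 and 19.8 CPM. Each withdrawal library stood above every continued library, and the change was 0.84 ± 0.16 (SE, edgeR adjusted p = 0.0435), against 0.01 ± 0.16 in the control cells.

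Rapgef4 (EPAC2), a cAMP-activated exchange factor for Rap proteins, was nearly absent from the continued libraries. They had 0, 0.112 and 0 CPM, all within the limit that a count of 0 allows, and the withdrawal libraries had 1.52, 0.933 and 1.81 CPM. Over the groups that is 2 counts against 78, a ratio of 41 per total count with a 95% interval of 11 to 345 that covers counting error only (edgeR adjusted p = 0.0282). At day 10 the miR-125b libraries had 0.958, 1.07 and 3.24 CPM and the control libraries 0.0542 to 0.243 CPM. The day 13 control cells had 0.0478, 0 and 0 CPM with continued doxycycline and 0.0636, 0 and 0.301 CPM after withdrawal, near or under the limit that a count of 0 allows, and their difference did not pass (edgeR adjusted p = 0.993).

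Arid3a, the named target, was lower in the libraries labelled withdrawal but did not pass the test over all genes. It had 45.4, 57.5 and 53.7 CPM in the continued libraries and 31.4, 35.6 and 26.7 CPM in the withdrawal libraries. The groups did not overlap, and the pairs differed by -0.53, -0.69 and -1.01 on the log2 scale. The fitted change was -0.74 ± 0.16 (SE, edgeR adjusted p = 0.189), and it ranged from -0.87 to -0.61 when 1 library was left out. DESeq2 gave an adjusted p of 0.0123 and the 6-library edgeR fit 1.72e-05. The day 10 miR-125b libraries, at 32.8, 32.8 and 29.8 CPM, lay in the range of the withdrawal libraries. Control cells had 61.0 ± 11.2 CPM with continued doxycycline and 69.5 ± 6.20 CPM after withdrawal (SD, n = 3). So the lower Arid3a of miR-125b cells was seen at day 10 and in the libraries labelled withdrawal, while the continued libraries lay nearer the control cells.

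**Figure D1:**
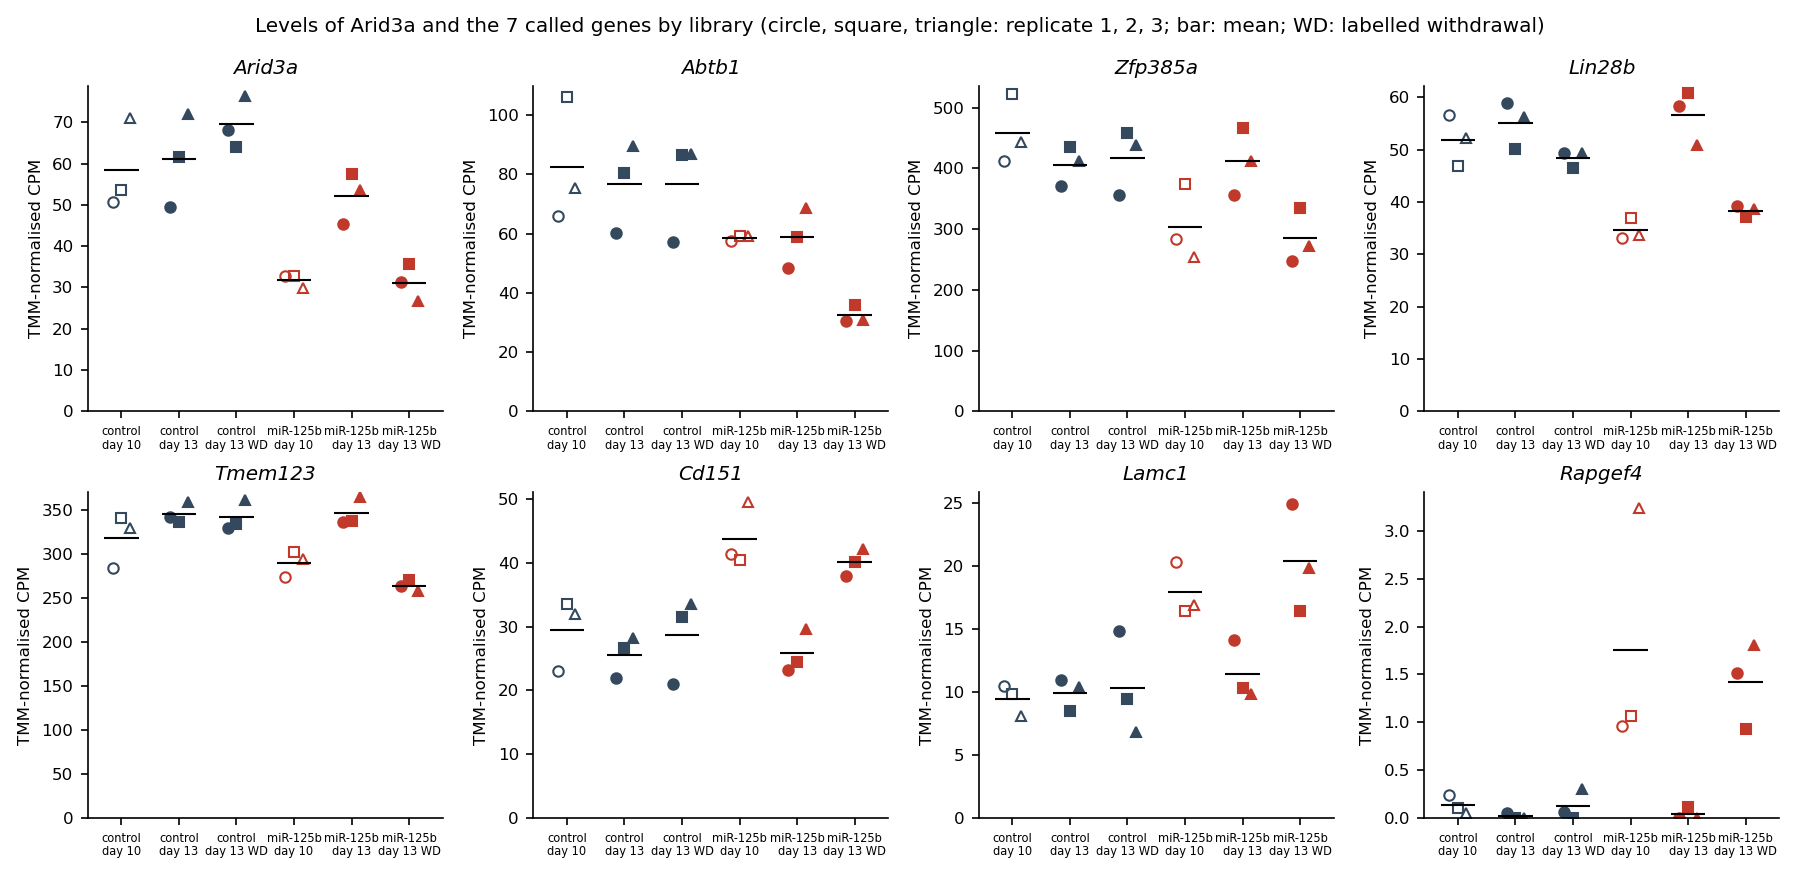
TMM-normalised CPM of Arid3a and the 7 called genes in each library (circle, square and triangle for replicates 1, 2 and 3; bars are group means), for control cells (dark) and miR-125b cells (red) at day 10 (open) and day 13 (filled, with WD for labelled withdrawal). The 3 withdrawal libraries of miR-125b cells lie apart from the 3 continued ones for every gene shown, and Abtb1 alone has day 10 miR-125b values (57.6 to 59.2 CPM) above the withdrawal values and within the continued range.

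The same withdrawal in control cells called 1 gene (0.00745% of 13419), Polr2k, a small RNA polymerase subunit, at -0.67 on the log2 scale there and -0.14 in miR-125b cells. Whether the treatment effect depends on the construct was tested as an interaction, and 0 genes passed (0%, edgeR; 437 at an unadjusted p under 0.05, lowest adjusted p 0.707; DESeq2 called 1). For Abtb1 the interaction was -0.85 ± 0.18 on the log2 scale (SE, edgeR adjusted p = 0.707), for Zfp385a -0.57 ± 0.12 (0.707) and for Arid3a -0.93 ± 0.23 (0.835). The miR-125b and control arms are thus not shown to differ for any single gene in this test.

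Over all genes tested, the 7 included, 359 (2.68%) were higher and 278 (2.07%) lower at an unadjusted p under 0.05. By the naming rule the next genes in each direction are given as values that did not pass. On the lower side these were M6pr (a mannose 6-phosphate receptor), Pop5 (a subunit of RNase P), Dus1l (a tRNA dihydrouridine synthase), Nrm (nurim, of the nuclear envelope), Arid3a, Mogs (the first glucosidase of N-glycan trimming), Lactb (a mitochondrial serine protease) and Cyb5r4 (a cytochrome b5 reductase). M6pr had 308, 297 and 342 CPM in the continued libraries and 245, 247 and 240 CPM in the withdrawal libraries, a difference of -0.37 ± 0.07 (SE, edgeR adjusted p = 0.106). Dus1l had 80.9, 75.7 and 79.2 against 59.4, 55.6 and 61.1 CPM, a difference of -0.42 ± 0.09 (adjusted p = 0.123). Neither gene's groups overlapped.

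On the higher side the genes given by the rule and reported here were Tmem246, Slc29a3 (a nucleoside transporter), Acsl4 (a long-chain acyl-CoA synthetase), Cand2 (an exchange factor of cullin ligases), Prepl and Ak1 (an adenylate kinase). Slc29a3 had 6.23, 7.38 and 6.07 CPM in the continued libraries and 12.8, 11.4 and 14.0 CPM in the withdrawal libraries, a difference of 0.95 ± 0.20 (SE, edgeR adjusted p = 0.143). Acsl4 had 89.5, 107 and 89.5 against 122, 129 and 127 CPM, a difference of 0.41 ± 0.10 (adjusted p = 0.363). The groups of both genes were separate. Slc29a3 also differed by 0.74 ± 0.20 in the control cells, unlike Acsl4 at -0.06 ± 0.10, and neither control value passed the test.

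**Figure D2:**
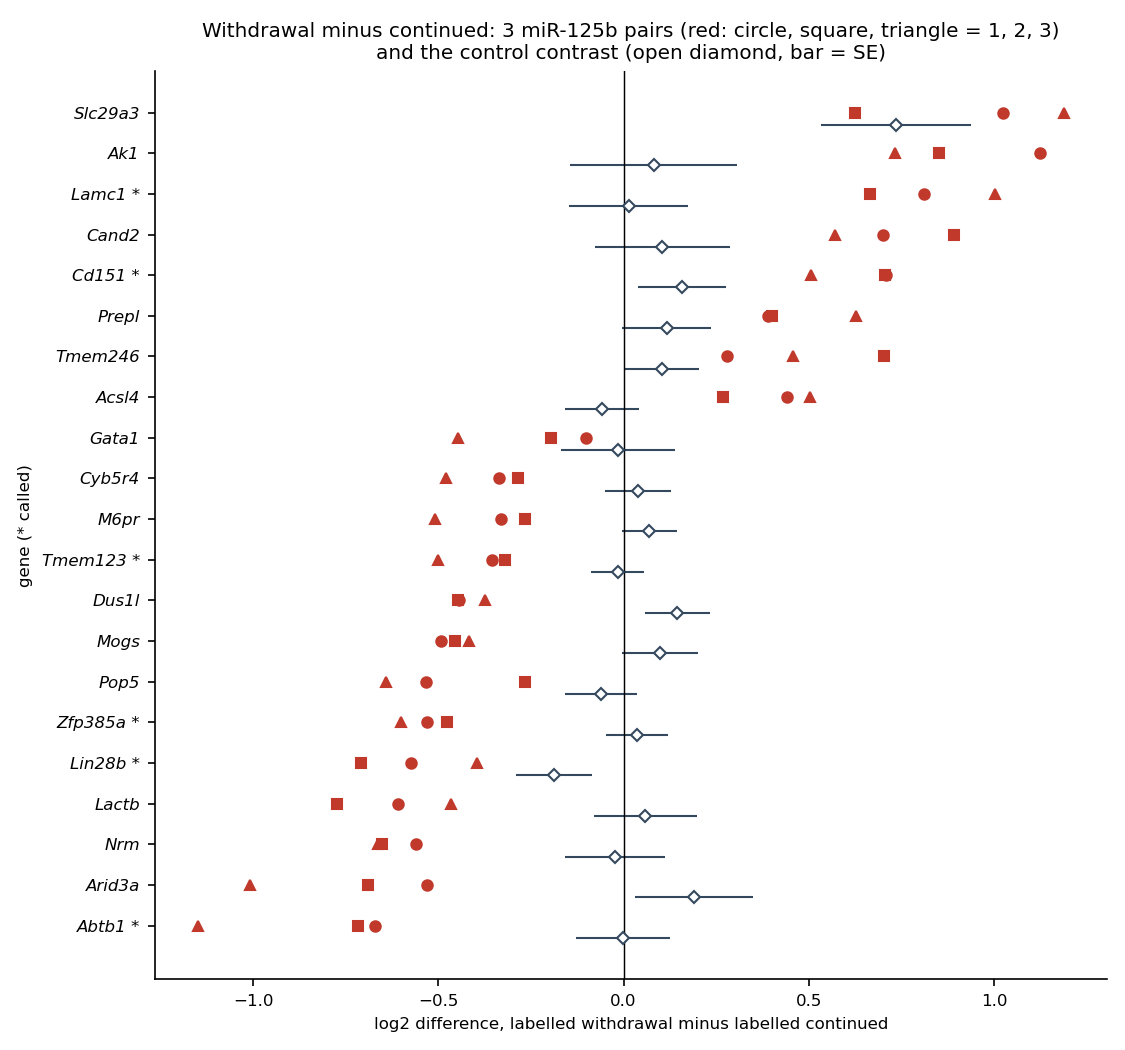
Log2 difference, labelled withdrawal minus labelled continued, in each of the 3 miR-125b pairs (red circle, square and triangle for replicates 1, 2 and 3) and in the control contrast (open diamond, bar is the SE), for Gata1, the called genes marked with a star (Rapgef4 left out for scale) and other genes named by p. The 3 pairs lie on 1 side of 0 for every gene, from -1.15 for Abtb1 in pair 3. The naming rule required this of the genes named by p, so for them it is not a result. The control values lie between -0.19 and 0.19 except that of Slc29a3 at 0.74.

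The called genes and those next by p were searched for seed matches. All 4 called genes that fell held a 7-base match in the longest annotated 3′ UTR and 3 of the 4 an 8-base match. Of the 8 next genes on the lower side 6 held a 7-base match and 5 an 8-base match, and Arid3a had the most, with 6 matches in 3082 bases, 2 of them 8-base matches. Among the genes that rose, Cd151 held a 7-base match and Lamc1 an 8-base match, whereas Rapgef4 had none. Of the 8 next genes on the higher side 1 held a match. As background, 1850 of the 11665 tested genes with an annotated 3′ UTR (15.9%) held CTCAGGG on the sense strand and 654 (5.61%) CTCAGGGA, every 8-base match being also a 7-base match. In the 6-library fit, where 102 genes (0.83%) were lower and 199 (1.62%) higher, 44 of the 94 lower genes with a UTR (46.8%) and 25 of the 194 higher genes (12.9%) held a 7-base match. A match is a description of these letters, not a shown site.

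Over all genes the shift with seed matches was small. Genes with an 8-base match had a median log2 difference of -0.03 between withdrawal and continued miR-125b libraries, those with 7-base matches only 0.0034, and those without a match 0.0073. The share lower in 3 of 3 pairs was 25.1%, 19.1% and 14.7% in these classes, against 15.5% of all genes tested. The share higher in 3 of 3 pairs was 14.4%, 18.6% and 17.9%, against 17.1%. Control cells differed in the other direction, with medians of 0.038 for genes with an 8-base match and 0.0027 for those without one. Genes with a match had longer UTRs, with a median of 2227 bases against 990, and the part of UTR length in these values was not tested.

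**Figure D3:**
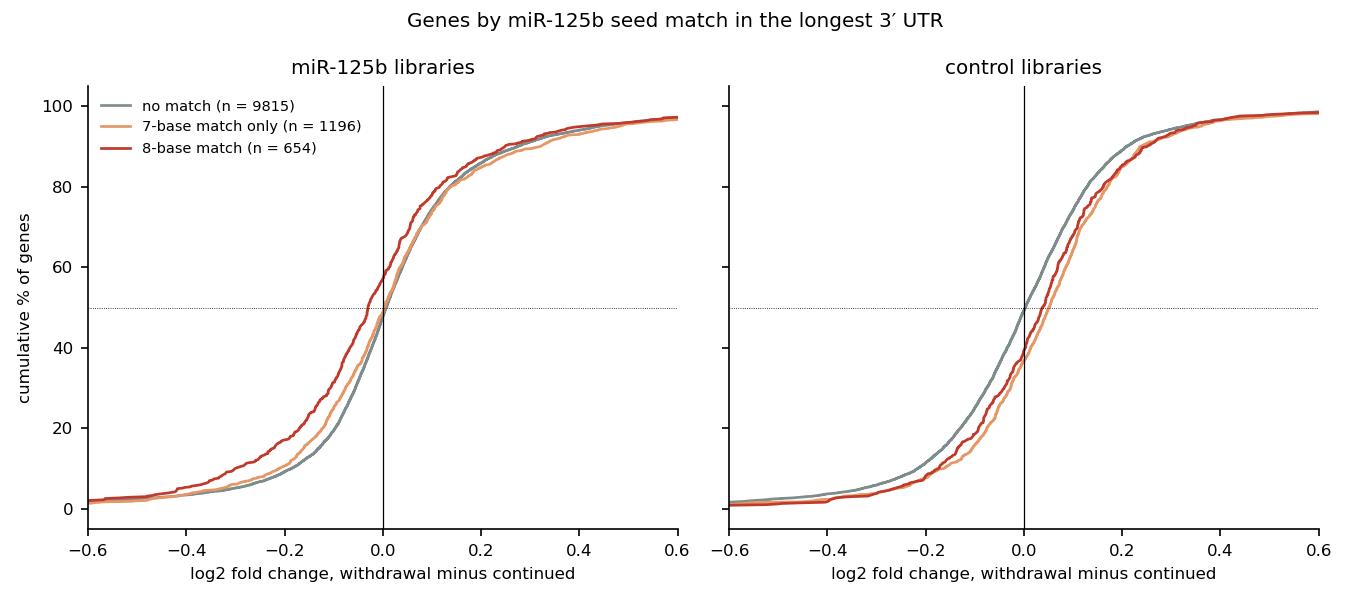
Cumulative share of genes (vertical axis, %) against the log2 fold change, withdrawal minus continued (horizontal axis, drawn from -0.6 to 0.6), in miR-125b cells (left) and control cells (right), for genes without a seed match, with 7-base matches only and with an 8-base match. In miR-125b cells the 8-base curve lies to the left, with a median of -0.03 against 0.0073 without a match, and in control cells both match curves lie to the right.

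Of the 42 miR-125b targets listed from the literature, 35 passed the filter on low counts, and 28 of the 35 were lower and 7 higher in the libraries labelled withdrawal. The median log2 difference was -0.11 against 0.004 over all genes tested, and 17 of the 35 were lower in 3 of 3 pairs and 0 higher in 3 of 3. Of all genes tested 48.8% were lower, 15.5% were lower in 3 of 3 pairs and 17.1% higher in 3 of 3. Abtb1 and Lin28b fell by the test (0.0298% of all genes did), and no other member passed. The summed level of the list was 3490 to 3670 CPM in the continued libraries and 3160 to 3310 CPM in the withdrawal libraries, without overlap. It was 3180 to 3290 CPM in the day 10 miR-125b libraries, and 3400 to 3800 CPM in the day 10 and day 13 control libraries. The median difference was 0.06 in control cells. The list was chosen with results of these data known, so its direction is not independent evidence.

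Members of the list differed widely. Arid3b, the close relative of Arid3a, had 24.4, 33.3 and 25.9 CPM in the continued libraries and 19.5, 24.9 and 16.7 CPM in the withdrawal libraries, a difference of -0.45 ± 0.14 (SE, edgeR adjusted p = 0.526). Lactb had 21.5, 24.1 and 20.2 against 14.1, 14.1 and 14.6 CPM, a difference of -0.61 ± 0.14 (adjusted p = 0.26), with separate groups. E2f2, a cell cycle transcription factor, had 62.1, 66.3 and 86.7 against 55.0, 55.9 and 54.7 CPM, a difference of -0.36 ± 0.12 (adjusted p = 0.717). Arid3a, Arid3b, Lactb and E2f2 were called lower in the 6-library fit beside Abtb1 and Lin28b. The apoptosis regulators of the list lay near 0: Bak1, which promotes cell death, at -0.11 ± 0.09, Mcl1, which restrains it, at -0.15 ± 0.09, and Bcl2 at 0.09 ± 0.12. Trp53 itself lay at -0.10 ± 0.09.

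**Figure D4:**
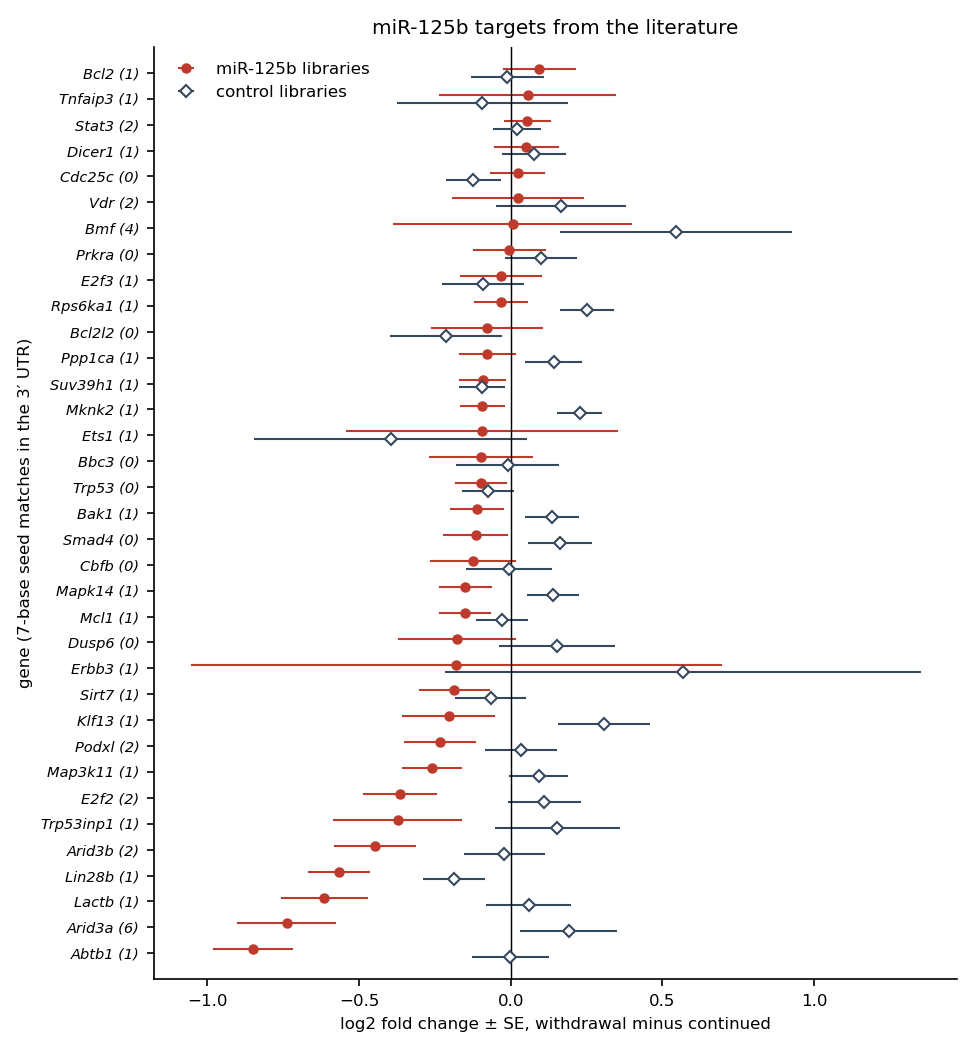
Log2 fold change with its SE, withdrawal minus continued, of the 35 tested miR-125b targets from the literature in miR-125b cells (red circles) and control cells (open diamonds), with the number of 7-base seed matches in brackets. Of the red points 28 lie below 0, from Abtb1 at -0.85 to values near 0, and the open points scatter on both sides with a median of 0.06.

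The day 10 libraries gave a reference that shares no library with the day 13 comparison, though they enter the same fit and carry the same replicate numbers. Between miR-125b and control at day 10, 636 genes (4.74%) were called higher and 522 (3.89%) lower. Of the 636 genes, 89.0% were also higher in the libraries labelled withdrawal than in those labelled continued, and of the 522 genes 87.4% were also lower. Over all genes tested 51.2% were higher and 48.8% lower. The medians were 0.27 for the 636 genes (0.35, 0.29 and 0.11 in pairs 1, 2 and 3) and -0.10 for the 522 genes (-0.18, -0.09 and -0.04). Of the control differences, 53.3% of the 636 were higher and 49.6% of the 522 lower. Across the 1158 genes, which are not independent replicates, Pearson's r between the day 10 and the withdrawal difference was 0.669 in miR-125b cells and -0.093 in control cells, and over all 13419 genes it was 0.361 and -0.052.

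**Figure D5:**
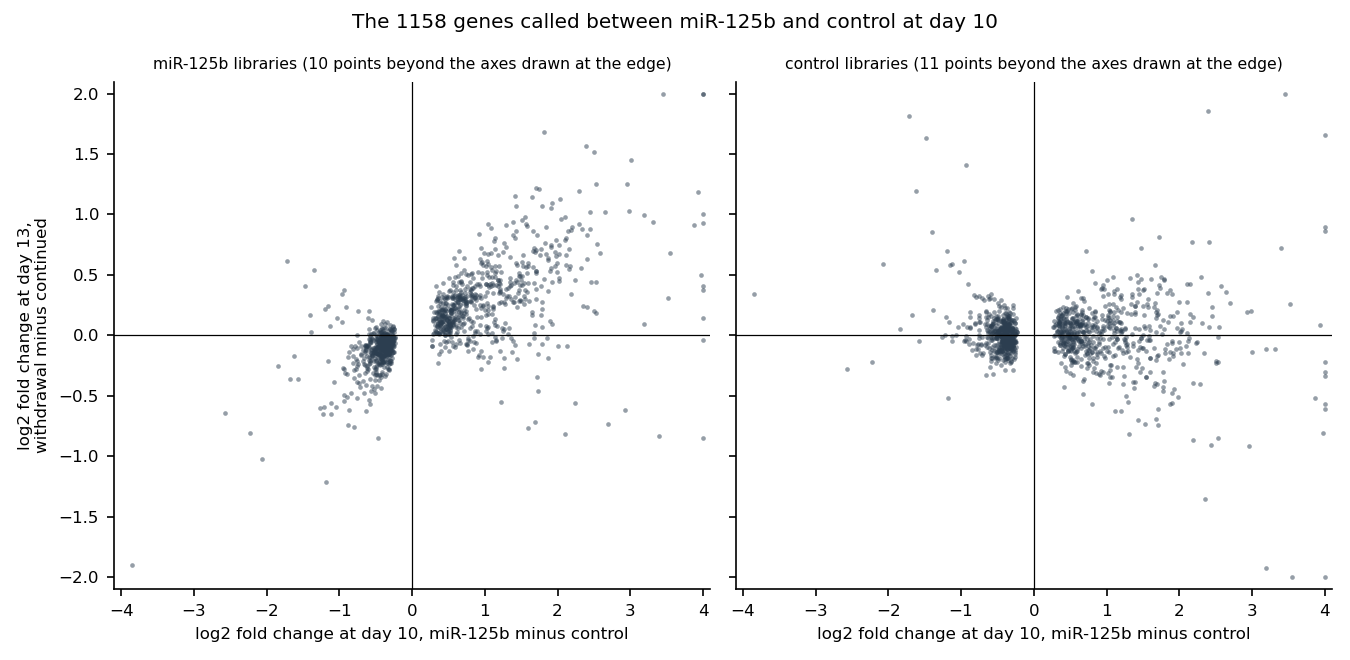
Each point is 1 of the 1158 genes called at day 10, by its log2 fold change there (miR-125b minus control, horizontal axis) and its log2 fold change at day 13 (withdrawal minus continued, vertical axis) in miR-125b cells (left) and control cells (right). In miR-125b cells most points lie at the lower left and upper right (r = 0.669), and in control cells they lie evenly about 0 on the vertical axis (r = -0.093).

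The called genes differed in the same direction at day 10. Zfp385a (-0.60 ± 0.08, SE, edgeR adjusted p = 0.000755), Lin28b (-0.58 ± 0.10, 0.00309) and Abtb1 (-0.47 ± 0.13, 0.0274) were lower with miR-125b, and Tmem123 (-0.13 ± 0.07, 0.252) did not pass. Rapgef4 (0.00572), Lamc1 (0.92 ± 0.16, 0.00224) and Cd151 (0.58 ± 0.12, 0.00638) were higher. Arid3a was lower by -0.88 ± 0.16 on the log2 scale (0.00458). For all 7 called genes the mean of the withdrawal libraries lay nearer to that of the miR-125b day 10 libraries than to the control day 10 mean. The continued libraries did so for 1 of the 7, Abtb1. Over all genes tested these shares were 43.7% and 34.2%. For Abtb1, Tmem123 and Zfp385a the withdrawal mean lay below both day 10 means, and for Lamc1 above both. There, being nearer to miR-125b at day 10 follows from the order alone. Abtb1 had means of 32.4 CPM after withdrawal, 58.7 CPM in the continued libraries and 58.6 CPM in the miR-125b day 10 libraries.

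Of the lineage lists only the megakaryocyte list held a called gene. Of 29 tested megakaryocyte and platelet genes, Cd151 rose and no other passed. The median was -0.03, and it differed between pairs, at 0.24, -0.07 and -0.16. The platelet glycoproteins Gp1ba (-0.19 ± 0.16), Gp5 (-0.21 ± 0.15), Gp9 (-0.15 ± 0.15) and Itga2b (-0.07 ± 0.13) did not pass. The summed level of the list was 5540 to 9110 CPM in the continued and 5890 to 8700 CPM in the withdrawal libraries.

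None of 25 tested erythroid genes passed, and their median was -0.19, with 17 lower. The median changed sign between pairs, at -0.04, 0.07 and -0.32 in pairs 1, 2 and 3. The erythroid sum was 1440 to 1610 CPM in the continued and 1280 to 1320 CPM in the withdrawal libraries, without overlap. In control cells it was 1320 to 1640 CPM with continued doxycycline and 1250 to 1590 CPM after withdrawal. At day 10 it was 1120 to 1260 CPM in the miR-125b and 1200 to 1590 CPM in the control libraries. The control ranges after withdrawal and at day 10 cover that of the miR-125b withdrawal libraries. In bulk libraries, fewer cells of a type and less RNA per cell cannot be told apart. Car2, carbonic anhydrase of red cells, had 320, 477 and 449 against 235, 397 and 292 CPM (-0.44 ± 0.13, SE, edgeR adjusted p = 0.523, and 0.00026 in the 6-library fit). Hba-a1, an adult alpha globin chain, had 29.9, 6.60 and 16.2 against 14.6, 5.60 and 8.05 CPM (-0.82 ± 0.35, adjusted p = 0.991), and reads of its near-identical copy Hba-a2 may be divided between both. Rhag, of the Rh complex, went the other way, at 8.44, 7.55 and 17.9 against 14.5, 11.2 and 25.3 CPM (0.61 ± 0.24, adjusted p = 0.926).

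The mast cell and basophil list (19 tested, median -0.14), the stem and progenitor list (14, 0.04) and the neutrophil and macrophage list (18, -0.03) had no called gene. Their medians changed sign between pairs or when 1 library was left out, as for mast cell genes at 0.036 without continued replicate 2. Mpo, the myeloperoxidase of neutrophil precursors, had 10.2, 12.6 and 7.07 CPM in the continued and 17.4, 28.5 and 13.1 CPM in the withdrawal libraries (1.00 ± 0.44, SE, edgeR adjusted p = 1.0), against 26.3, 13.5 and 13.6 CPM at day 10. S100a9 of the same list went the other way at few counts, with 0.384, 0.224 and 1.27 against 0.162, 0.0583 and 0.32 CPM (-1.68 ± 0.72). It did not pass, and 9 genes of the list were higher and 9 lower. The lymphoid list (5 of 18 tested, median 0.08) and the hepatocyte, endothelial and stromal list (8 of 22, 0.19) rested on few genes, none of them called. Cd3g, of the T cell receptor complex, had 2.45, 1.12 and 3.70 against 1.08, 0.583 and 1.39 CPM.

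The stress lists held no called gene. Of 27 tested genes of the integrated stress response and its factor ATF4, 23 were higher and 15 higher in 3 of 3 pairs (17.1% of all genes were), with a median of 0.14 against 0.01 in control cells. Pck2, of gluconeogenesis, had 79.5, 84.6 and 76.0 against 112, 114 and 79.2 CPM (0.33 ± 0.12, SE, edgeR adjusted p = 0.801). Psph, of serine synthesis, had 27.8, 43.6 and 31.7 against 40.6, 56.4 and 35.5 CPM (0.37 ± 0.15, adjusted p = 0.936). Slc7a11, a cystine importer, lay at 0.41 ± 0.18 (0.991), and Atf4 itself at 0.09 ± 0.15. The summed levels of the list overlapped, at 3470 to 3840 CPM in the continued and 3540 to 4140 CPM in the withdrawal libraries.

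Of 32 tested p53 target genes 14 were higher in 3 of 3 pairs and 5 lower, against 17.1% and 15.5% of all genes. In total 20 of the 32 were higher, with a median of 0.07, and in the control cells 21 of the 32, with a median of 0.04. Cdkn1a, the p21 cell cycle inhibitor, had 111, 106 and 163 CPM in the continued and 163, 154 and 177 CPM in the withdrawal libraries, which overlapped (0.41 ± 0.18, SE, edgeR adjusted p = 1.0). Phlda3, an inhibitor of Akt, had 22.9, 30.9 and 39.8 against 31.9, 50.4 and 49.0 CPM (0.49 ± 0.19, adjusted p = 0.866). Both were called higher with miR-125b at day 10, at 0.94 (0.0057) and 1.03 (0.00404) on the log2 scale. Trp53inp1, on both the p53 and the target list, was lower in 3 of 3 pairs at -0.37 ± 0.21.

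In the adhesion and matrix list Cd151 and Lamc1 rose, 2 of 22 tested, against 0.0224% of all genes. This list too was chosen with results of these data known, so that share is not independent evidence. The median was 0.03 with 12 of 22 higher, and in the control cells it was 0.08 with 18 of 22 higher. Itga2, the alpha-2 integrin that pairs with Itgb1 as a collagen receptor of platelets, had 1.20, 3.80 and 1.82 CPM in the continued and 5.20, 5.01 and 4 CPM in the withdrawal libraries (1.14 ± 0.37, SE, edgeR adjusted p = 0.643). Itgb1 lay at 0.05 ± 0.08. Itga4, the alpha-4 integrin, had 266, 133 and 201 against 175, 96.6 and 170 CPM, lower in each pair (-0.43 ± 0.30, adjusted p = 1.0), and it was called lower in the 6-library fit (adjusted p = 0.000359). The fetal programme list had 7 tested members, of which Lin28b fell. Igf2bp3, a fetal RNA-binding protein, lay at -0.17 ± 0.12.

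No gene was called in the proliferation, mitochondrial and interferon lists. Their medians in miR-125b cells were -0.01 for 33 proliferation genes, 0.004 for 37 nuclear genes of oxidative phosphorylation, -0.001 for 38 mitochondrial ribosome proteins, 0.001 for 14 genes of the mitochondrial genome and 0.004 for 24 interferon response genes. The mitochondrial genome had a median of 0.42 in control cells, beside the library that stood apart. Of the interferon genes 13 were higher and 11 lower. Usp18, a brake on that response, had 22.4, 15.3 and 28.3 against 30.1, 25.5 and 35.8 CPM (0.49 ± 0.19, SE, edgeR adjusted p = 0.898). Gbp2 went the other way, at 1.58, 1.57 and 1.88 against 0.974, 1.28 and 1.01 CPM (-0.61 ± 0.27), and did not pass.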

How the data were processed

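RNA was taken up with a column kit and sequenced as Illumina libraries, per the labels. The deposited table holds whole-number read counts per gene, and fastp, HISAT2 2.0.5 and featureCounts with build mm10 are named in the submitters' processing notes. Strandedness and annotation release are not given in the sources used here, so reads of overlapping genes may be mixed. Of 47069 identifiers, 46574 matched a name in GENCODE M21, and unmatched ones held at most 0.0306% of a library's counts.

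One edgeR 4.0.16 quasi-likelihood model (R 4.3.3; filterByExpr, TMM, robust) was fitted to all 24 libraries (14694900 to 23755245 counts) with 8 group terms and the replicate number as a block, which left 13419 genes. P-values were two-sided and adjusted by Benjamini-Hochberg over these genes, and an adjusted p under 0.05 was called. The labels do not say what a number shares. The deviations of all 84 same-number pairs from their group means correlated, at 0.163 to 0.781, against a median of -0.304 over 168 other pairs. The 3 pairs compared gave 0.663, 0.742 and 0.47.

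Genes were named by rule: Gata1 and Arid3a, every called gene, the next 8 in each direction by p with 3 of 3 pairs alike and a mean log2 CPM no lower than 2, and up to 2 members of each of 17 lists by p. Some genes the rule named are not reported here. Further list members were named after their values were seen. The comparison and lists were chosen with earlier results of these data known. Alternatives were no block, other scaling, no filter, DESeq2 1.42.0, only the groups compared, and each library left out. A fit to the 12 day 13 libraries and one without control withdrawal replicate 1 were added after seeing the data. The scripts were tested on simulated data.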

Additional observations from a re-analysis of the deposited data

How the results depend on the processing

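For the miR-125b comparison 7 genes were called. The fit to all 24 libraries gave this count, with replicate terms shared by all 8 groups. It therefore does not pair the 6 compared libraries alone. Without the replicate block the count was 0, both in all 24 libraries and in the 6 alone. DESeq2 called 16, the 6 libraries alone with the block 301, and the 12 day 13 libraries with the block 0. With 1 library left out it was 0 to 8, the 8 being without control withdrawal replicate 1 and 0 to 2 without a compared library. In the control cells 1 gene was called, against 0 without the block, 3 without a filter on low counts, 11 by DESeq2, 0 with only those groups, with or without the block, and 0 to 7 with 1 library left out (7 without withdrawal replicate 2). For the interaction the count was 0, and 1 by DESeq2. The common dispersion was 0.0169 with the block, 0.0591 without it and 0.00473 in the 6 libraries alone with it. No named gene changed direction, and over their refits 442 kept, 55 lost and 38 gained a call, counting genes not called in both as kept. Genes below about 0.175 CPM in a library lie within 3 counts, so small changes of low genes could not be seen at this depth.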

Other observations

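The fit to the 6 libraries alone added genes that belong to none of the lists, a few named here by the size of their change after their values were seen. Serpina3g, a serine protease inhibitor of blood cells, had 35.4, 30.4 and 47.3 CPM in the libraries labelled continued and 80.3, 66.6 and 88.8 CPM in those labelled withdrawal. The groups did not overlap, and the fit to all libraries gave 1.07 ± 0.26 on the log2 scale (SE, edgeR adjusted p = 0.408) against an adjusted p of 8.58e-10 in the 6-library fit. It was also higher with miR-125b at day 10, by 1.79 on the log2 scale (adjusted p = 0.00174), and differed by 0.46 between the treatments in control cells.

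On the lower side Gzmc, a granzyme, had 46.1, 7.55 and 39.0 CPM in the continued and 23.8, 5.83 and 16.1 CPM in the withdrawal libraries, lower in each pair but overlapping as groups because replicate 2 was low in both. Of the 199 genes called higher in the 6-library fit 194 were also higher with miR-125b at day 10, and of the 102 called lower 82 were also lower there. Over all 13419 genes tested 6874 were higher and 6545 lower at day 10. Called at day 10 in the same direction were 107 of the 199 and 42 of the 102, and in the other direction 0 and 1.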
